A study of Mus musculus with 4 samples.

Results

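The genes described here are 40 lysosomal genes of the mouse, namely the cathepsins and legumain, glycosidases and acid ceramidase, prosaposin and progranulin, lysosomal membrane proteins, subunits of the proton pump and the MiT/TFE transcription factors. They were chosen by name, as the rows of the gene count table with a listed symbol, and all 40 were found among 54532 genes. The libraries are bulk RNA-seq of alveolar macrophages (AMs), which reside in the airspaces, purified from lungs of female wild-type mice. The study's methods give its wild-type mice a BALB/c background and an age of 8 to 10 weeks, while the labels of these libraries state neither. The control group held 2 libraries from mice without a tumor, and the tumor group held 2 libraries from mice whose mammary fat pad had received 4T1 cells, a mouse mammary carcinoma line, 2 weeks before. No other allele or agent distinguished the groups. The study describes the lung macrophages it isolated for staining as CD45+ CD11b- CD11c+ SiglecF+, and the sources used here give no separate gate for the sequenced cells. Whether a library came from 1 mouse or a pool is not given in the sources used here, so the p-values below measure the spread between these libraries, which may be technical.

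Lysosomes are acidic organelles in which hydrolases of many classes break down proteins, glycans and lipids delivered by endocytosis, phagocytosis and autophagy. The vacuolar proton pump (V-ATPase) sets the low pH that activates the cathepsins, membrane glycoproteins line the organelle, and TFEB, TFE3 and MITF (the MiT/TFE family) bind a short element in promoters of many lysosomal genes. AMs use this system for the clearance of surfactant, dead cells and inhaled particles, and lysosomal transcripts are abundant in macrophages.

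The element bound by MiT/TFE factors is built around an E-box, and it is shown for 7 genes described below so that the fold changes can be read beside it. The 300 bases from 250 before to 50 after each start site were taken from RefSeq (build GRCm38.p6), which had an entry for 33 of the 40 genes. Atp6v1h, Ctsb, Ctse, Atp6v1c1, Ctsh, Asah1 and Atp6v0d2 were not matched. Both strands were searched for TCACGTG and for the E-box CACGTG that it contains. TCACGTG on either strand was present for 10 of the 33 genes (30.3%), against 4.29% of all 27025 genes with a promoter entry and 26.1% of 88 other lysosomal genes. CACGTG was present for 12 (36.4%), against 8.09% of all genes. The printed stretches lie outside annotated exons, and capitals mark TCACGTG or its reverse complement CACGTGA, overlapping where both are read in TCACGTGA.
Lamp1, chr8:13159061-13159160, plus strand, upstream of the gene: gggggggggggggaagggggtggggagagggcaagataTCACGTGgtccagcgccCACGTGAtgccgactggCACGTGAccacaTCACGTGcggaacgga
Mcoln1, chr8:3500357-3500456, plus strand, upstream of the gene: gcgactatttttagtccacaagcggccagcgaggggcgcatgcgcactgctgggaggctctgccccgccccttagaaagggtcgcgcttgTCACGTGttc
Ctsd, chr7:142388040-142388077, minus strand, upstream of the gene: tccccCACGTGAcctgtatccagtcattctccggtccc
Glb1, chr9:114400968-114401067, plus strand, upstream of the gene: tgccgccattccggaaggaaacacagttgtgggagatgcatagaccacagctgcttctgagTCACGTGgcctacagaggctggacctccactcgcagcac
Gaa, chr11:119267773-119267872, plus strand, upstream of the gene: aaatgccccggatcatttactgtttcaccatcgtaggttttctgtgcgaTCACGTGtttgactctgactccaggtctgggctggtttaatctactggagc
Atp6v1a, chr16:44139340-44139439, minus strand, intron of an annotated Atp6v1a transcript: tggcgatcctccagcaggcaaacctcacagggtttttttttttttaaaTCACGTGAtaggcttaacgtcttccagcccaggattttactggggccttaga
Lgmn, chr12:102439093-102439192, minus strand, intron of an annotated Lgmn transcript: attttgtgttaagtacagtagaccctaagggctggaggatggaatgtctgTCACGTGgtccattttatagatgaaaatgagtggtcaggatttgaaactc
The other genes with TCACGTG were Ctsa, Gla and Atp6v0d1. Lamp1, a major glycoprotein of the lysosomal membrane, held 4 such matches in the stretch shown, between 62 and 10 bases before its start site. A match describes these letters and does not show binding.

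Total counts were between 16167147 and 19205737 per library, and levels are given as CPM, counts brought to 1 common library size after scaling by the trimmed mean of M values (TMM), with factors of 0.977 to 1.02. Across genes, log2 CPM values correlated at 0.994 within the control pair, at 0.992 within the tumor pair and at 0.905 between groups. All 11 AM identity genes were detected in every library and were lower in the tumor group, with a summed level of 13510.3 to 13625 CPM in the control and 9408 to 9566 CPM in the tumor libraries. Markers of other cells moved with the tumor group. The summed level rose from between 48.2 and 48.5 to between 3859 and 3892 CPM for neutrophil genes (10 of 10 higher), from between 0.480 and 0.507 to between 2204 and 2224 CPM for eosinophil genes (5 of 5, Prg3 at 0 in the controls) and from between 0.640 and 1.08 to between 643 and 648 CPM for hepatocyte genes (8 of 8, with Alb, Ahsg, Ttr, Fga and Fgb at 0 in the controls). Basophil and mast cell genes (5 of 5 higher, Mcpt8 and Ms4a2 at 0 in the controls) stood at 0.267 to 0.634 against 53.2 to 60.0 CPM, B cell genes (5 of 5) at 18.4 to 20.2 against 41.3 to 43.7 CPM, and fibroblast genes (4 of 4) at 1.08 to 1.12 against 6.12 to 7.03 CPM. Dendritic cell genes, with 3 higher and 1 lower of 6, stood at 11.7 to 11.8 against 35.8 to 37.4 CPM, and monocyte and interstitial macrophage genes, with 2 higher and 4 lower of 7, at 38.7 to 38.9 against 34.9 to 37.0 CPM. Of 5 alveolar type 2 genes tested, 1 was higher and 2 were lower, with sums of 35.4 to 39.2 against 85.9 to 87.4 CPM, most of which was Napsa, the other genes of the list being at 3.87 CPM or less in every library. The part of these cells in any result below was not tested, and in bulk samples fewer cells of a type cannot be told apart from less RNA per cell.

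Most of the 40 lysosomal genes were, under TMM scaling, modestly lower in the tumor group, a direction that turned when libraries were scaled on AM identity genes, and 3 genes changed by 1.5-fold or more. Ctse, an aspartic cathepsin, was 104-fold higher, Cd63, a tetraspanin of late endosomes, was 1.68-fold higher, and Tfe3, a MiT/TFE factor, fell to 0.541 of its control level. By edgeR's quasi-likelihood test at a Benjamini-Hochberg adjusted p under 0.05, 26 of the 40 genes (65.0%) were lower and 8 (20.0%) were higher, against 24.8% lower and 29.0% higher among 14256 genes tested, and all 40 had passed the filter on low counts. The other 6 did not pass the threshold, namely Ctso, Gaa, Gla, Grn, Lamp1 and Mitf, with log2 fold changes between -0.12 and 0.09. In either direction, 85.0% of the genes were called, against 53.8% of all genes tested. The changes themselves were smaller, with a median absolute log2 fold change of 0.20 over the 40 genes and 0.32 over all genes tested. Genes with many counts are called at smaller changes, and the part of this in the share called was not tested. When a change of at least 1.5-fold was also required, Ctse and Cd63 remained on the higher side, against 17.4% of all genes tested, and Tfe3 on the lower side, against 7.92%.

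**Figure D1:**
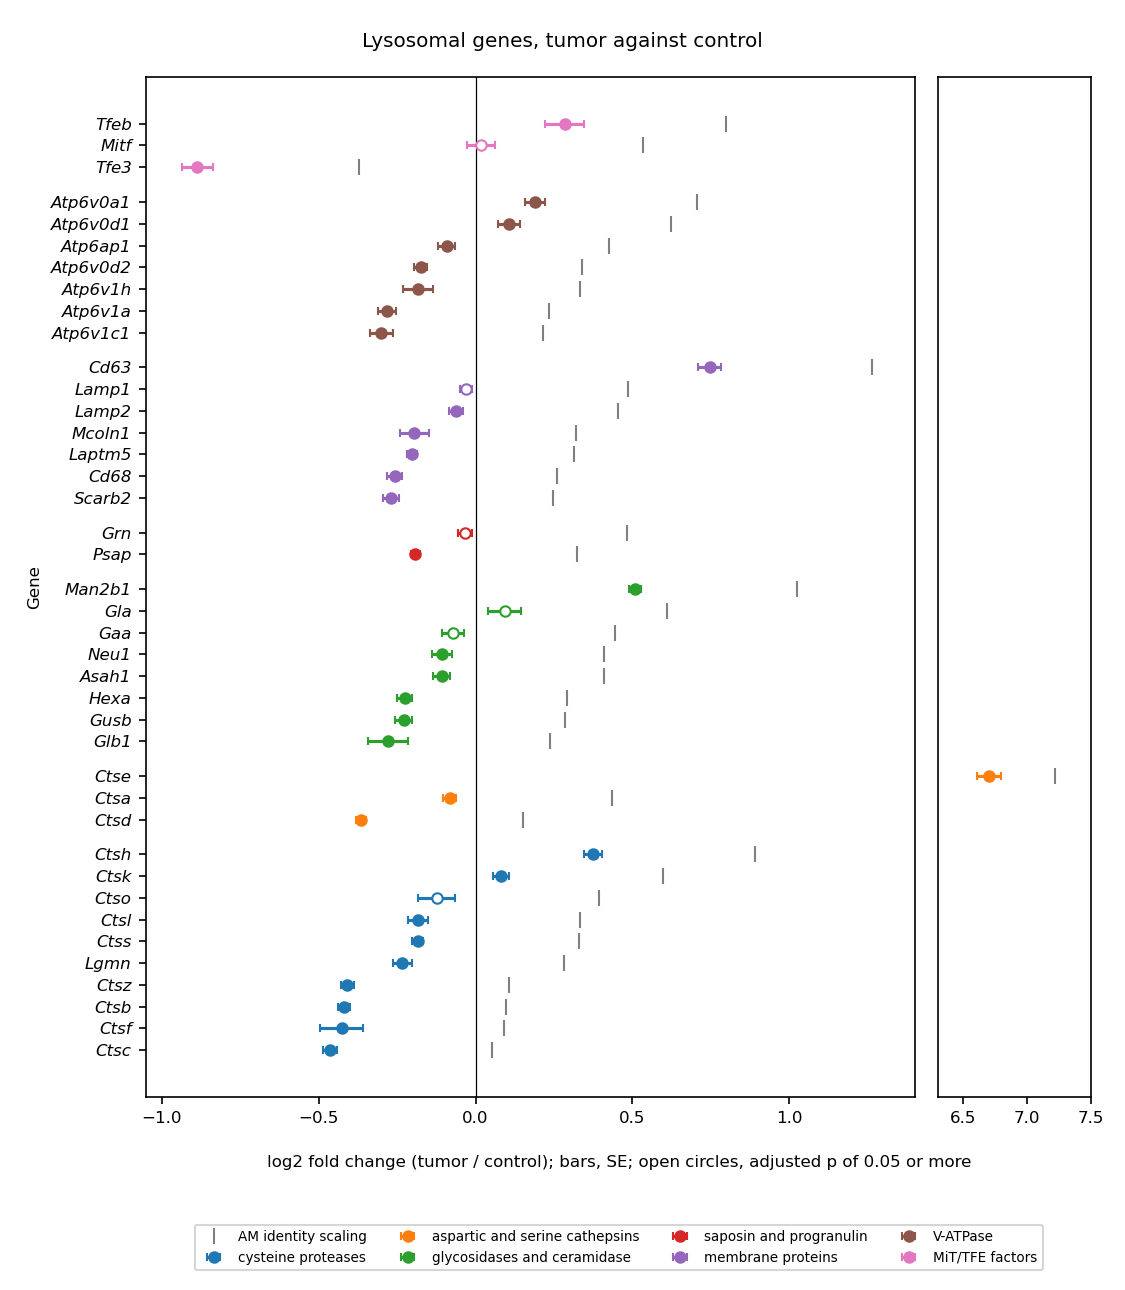
Log2 fold change (x axis, tumor over control, with a break before the right panel) of each of the 40 lysosomal genes (y axis), by role. Circles and bars are the edgeR estimate and its SE under TMM scaling, open circles have an adjusted p of 0.05 or more, and grey ticks give the estimate when libraries are scaled on AM identity genes, under which 38 of the 40 genes are higher and only Tfe3 is called lower, against 71.1% and 4.71% of all genes tested.

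The 25 lower genes other than Tfe3 changed by between -27.5% and -4.22%, and the 7 higher genes other than Ctse by between 5.86% and 67.8%. The CPM values of the 2 groups did not overlap for 39 of the 40 genes (97.5%, against 75.1% of all genes tested), and Mitf was the exception. That share too depends on how many counts a gene has as well as on its change. The median log2 fold change was -0.18 over the 40 genes, 0.02 over all genes tested and -0.48 over the AM identity genes. The directions depended on the scaling: with library sizes set on the AM identity genes, the median of all genes rose by 0.52, to 0.53, that of the 40 genes rose to 0.34, and 38 were called higher and 1 lower, while 71.1% of all genes tested were called higher and 4.71% lower under that scaling. At 1.5-fold or more, 9 of the 40 genes were higher and 0 lower under it, against 42.3% and 1.88% of all genes tested. The AM identity genes did not move alike. Under TMM scaling their log2 fold changes ran from -2.13 to -0.16, and under AM identity scaling 5 of these 11 genes were called higher and 4 lower. Relative to all genes tested, the median of the 40 genes was lower by 0.20 on the log2 scale, and relative to the AM identity genes it was higher by 0.30, both of which a change of scaling leaves nearly as they are because it moves all genes alike. All directions below are those under TMM scaling, and the counts under AM identity scaling are given for each class.

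Together the 40 genes held 3.08% and 3.10% of all counts in the control and 2.88% and 2.89% in the tumor libraries. The proteases alone held 1.24% and 1.25% against 1.09% and 1.09%. Psap, Ctsd and Laptm5, the 3 genes with the highest counts of the set, held 1.25% ± 0.015 of control counts and 1.11% ± 0.0056 of tumor counts (SD, n = 2), and without them the share was 1.84% against 1.78%.

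Levels of different genes were compared as CPM per kilobase of the gene length in the deposited table (mean ± SD, n = 2). In the control libraries the highest levels were those of Psap (2245 ± 26.1), Ctss (1899.8 ± 10.4), Ctsd (1631 ± 32.0), Laptm5 (753 ± 2.05) and Ctsz (729.8 ± 12.5). These 5 genes kept this order in the tumor libraries, at 1966 ± 9.61, 1671 ± 2.40, 1266 ± 10.1, 655 ± 0.435 and 549.7 ± 3.41 CPM per kilobase. In the control libraries Atp6ap1 (136 ± 3.63), Lgmn (131 ± 0.850) and Atp6v0d1 (130.2 ± 7.29) lay within the sum of their SDs of each other, as did Glb1 (23.7 ± 1.33) and Gla (23.4 ± 1.16). The lowest levels were those of Ctso (12.1 ± 0.188), Tfe3 (12.0 ± 0.140), Atp6v1h (9.69 ± 0.0202), Tfeb (8.67 ± 0.234) and Ctse (0.509 ± 0.0416), of which Ctso and Tfe3 did not differ beyond their spread. Ctse moved from rank 40 in the control to rank 26 in the tumor libraries, at 53.5 ± 2.53 CPM per kilobase, and Tfe3 from rank 37 to rank 40, at 6.51 ± 0.0828. Per kilobase of the longest annotated transcript the control levels of Tfeb and Atp6v1h were 20.99 and 19.6, at ranks 35 and 37 of the 40.

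**Figure D2:**
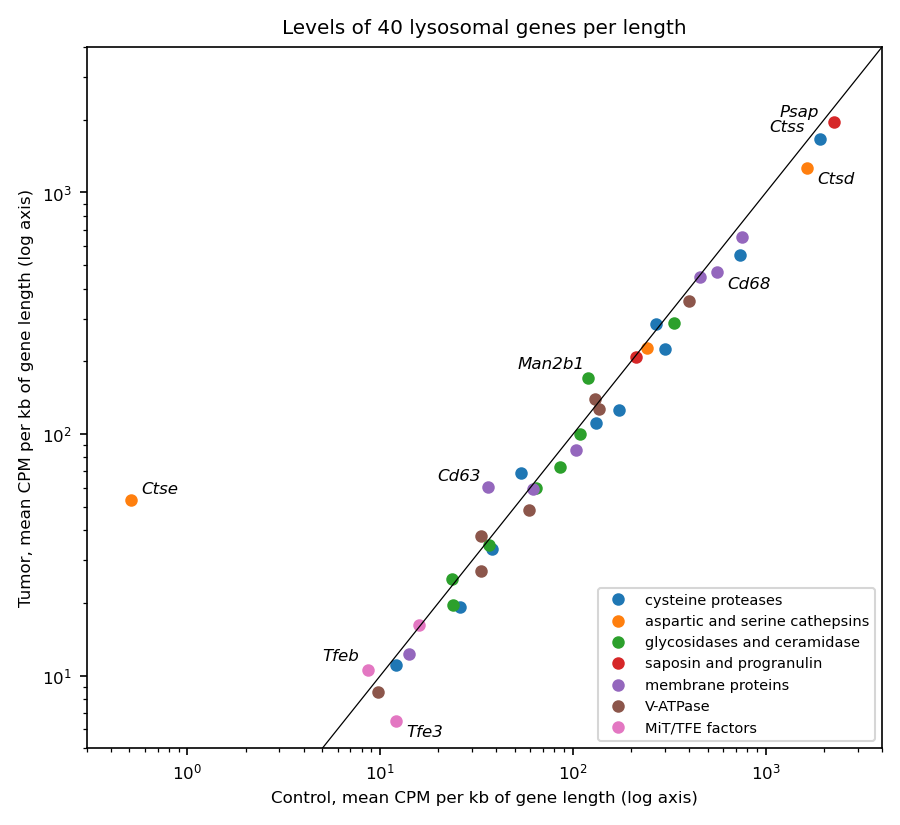
Mean level of each of the 40 lysosomal genes in the control (x axis) and tumor libraries (y axis), in CPM per kilobase of gene length on log axes, coloured by role, with the line of equal levels. Psap, Ctss and Ctsd sit at the top in both groups, and Ctse stands far above the line at 0.509 in the control and 53.5 in the tumor libraries.

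The cysteine proteases were mostly lower. Of 10 genes, 7 were lower (70.0%, against 24.8% of all genes tested), Ctsh and Ctsk were higher (20.0%, against 29.0%) and Ctso was not called. Under AM identity scaling 9 were higher and 0 lower, against 71.1% and 4.71% of all genes tested. Cathepsin C (Ctsc; ENSMUSG00000030560, chr7:88278085-88310888), a dipeptidyl peptidase that activates granule serine proteases, stood at 1016 and 1005 CPM in the control and 718 and 748 CPM in the tumor libraries. Its log2 fold change was -0.46 ± 0.022 (adjusted p = 2.13e-16), and the tumor values were 0.725 of the control values. Cathepsin F (Ctsf), a less abundant endopeptidase, gave 51.6 and 50.8 CPM in the control and 39.2 and 37.1 CPM in the tumor libraries, a log2 fold change of -0.43 ± 0.069 (adjusted p = 6.57e-06). Cathepsin B (Ctsb; ENSMUSG00000021939, chr14:63122462-63145923), which acts as an endopeptidase and as a dipeptidyl carboxypeptidase, stood at 1819 and 1817 CPM in the control and 1359 and 1359 CPM in the tumor libraries. It fell by 0.42 ± 0.018 on the log2 scale (adjusted p = 1.19e-17), with almost no spread within a group. Cathepsin Z (Ctsz), a carboxypeptidase, fell from 1039 and 1064 to 796 and 789 CPM, by 0.41 ± 0.021 on the log2 scale (adjusted p = 1e-15). Under AM identity scaling these 4 genes, which had the lowest fold changes of the class, had log2 fold changes of 0.05, 0.09, 0.10 and 0.11, and Ctsf was the one of the 40 genes that was then not called.

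The remaining lower cysteine proteases changed less. Legumain (Lgmn), which cleaves after asparagine and processes other cathepsins, stood at 306 and 303 CPM in the control and 254 and 265 CPM in the tumor libraries, a log2 fold change of -0.23 ± 0.031 (adjusted p = 2.16e-07). Cathepsin S (Ctss), which trims the invariant chain of MHC class II in antigen-presenting cells, was among the most abundant members at 2589.9 and 2570.0 CPM in the control and 2267 and 2272 CPM in the tumor libraries. It fell by 0.18 ± 0.016 (adjusted p = 1.13e-10), much like cathepsin L (Ctsl), an endopeptidase of broad specificity, which gave 244 and 248 CPM in the control and 213 and 219.7 CPM in the tumor libraries and fell by 0.18 ± 0.032 (adjusted p = 1.96e-05). Cathepsin O (Ctso) had 62.6 and 61.3 CPM in the control and 58.0 and 55.9 CPM in the tumor libraries. The groups did not overlap, yet its log2 fold change of -0.12 ± 0.059 was not called (adjusted p = 0.0798), and without tumor replicate 1 it was -0.16 with an adjusted p of 0.0416.

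Ctsh and Ctsk were the cysteine proteases that were higher. Cathepsin H (Ctsh; ENSMUSG00000032359, chr9:90054152-90076089), an aminopeptidase that also matures surfactant protein in alveolar type 2 cells, stood at 239.6 and 241 CPM in the control and 312 and 311 CPM in the tumor libraries. Its log2 fold change was 0.37 ± 0.030 (adjusted p = 1.22e-11), a 1.30-fold rise with the tumor libraries well above the controls. Of the 5 alveolar type 2 genes tested, Napsa was higher (1.41 ± 0.067), Sftpa1 (-0.99 ± 0.41) and Sftpb (-0.89 ± 0.37) were lower, and Sftpc (0.46 ± 0.26) and Slc34a2 (1.18 ± 0.52) were not called, all on the log2 scale. The calls of Sftpa1 and Sftpb were lost under AM identity scaling (adjusted p = 0.293 and 0.355), under which Sftpc and Slc34a2 were called higher (adjusted p = 0.00129 and 0.00481). Cathepsin K (Ctsk), the collagen-degrading protease of osteoclasts, stood at 411 and 405 CPM in the control and 428 and 436 CPM in the tumor libraries, a log2 fold change of 0.08 ± 0.026 (adjusted p = 0.00958). That small rise was not called without control replicate 2 (0.05, adjusted p = 0.211) or without tumor replicate 2 (0.06, adjusted p = 0.102).

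Ctse was the member with the highest fold change of the 40. Cathepsin E (ENSMUSG00000004552, chr1:131638306-131675505) is an aspartic protease of endosomal compartments, found in gastric epithelium and in some immune cells, and is a relative of cathepsin D. Control libraries held 32 and 24 counts of it, above the floor of 3 counts, and tumor libraries held 3033 and 3214. In CPM these were 1.71 and 1.52 in the control and 175 and 164 in the tumor libraries. The log2 fold change was 6.70 ± 0.094 (adjusted p = 6.41e-29), and it kept its direction and call under all 13 alternative fits. The summed levels of the marker lists of other cells, given above, rose along with it, except that of the monocyte and interstitial macrophage list.

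Cathepsin D (Ctsd; ENSMUSG00000007891, chr7:142375911-142388038), the main aspartic protease of lysosomes, went the opposite way to Ctse. It stood at 3782 and 3888 CPM in the control and 2959.8 and 2993 CPM in the tumor libraries, and it fell by 0.37 ± 0.016 on the log2 scale (adjusted p = 2.63e-17). Both tumor libraries lay below both controls, at 0.776 of the control level. Cathepsin A (Ctsa), a serine carboxypeptidase that also shields Neu1 and beta-galactosidase in a complex, was nearly level at 1141 and 1130.5 CPM in the control and 1089 and 1057 CPM in the tumor libraries. Its fall of 0.08 ± 0.020 was called (adjusted p = 0.00123), but not with total counts as library sizes (-0.015, adjusted p = 0.558). Of the aspartic and serine cathepsins, 2 were thus lower and 1 higher, against 24.8% and 29.0% of all genes tested. All 3 were higher under AM identity scaling, against 71.1% of all genes tested.

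**Figure D3:**
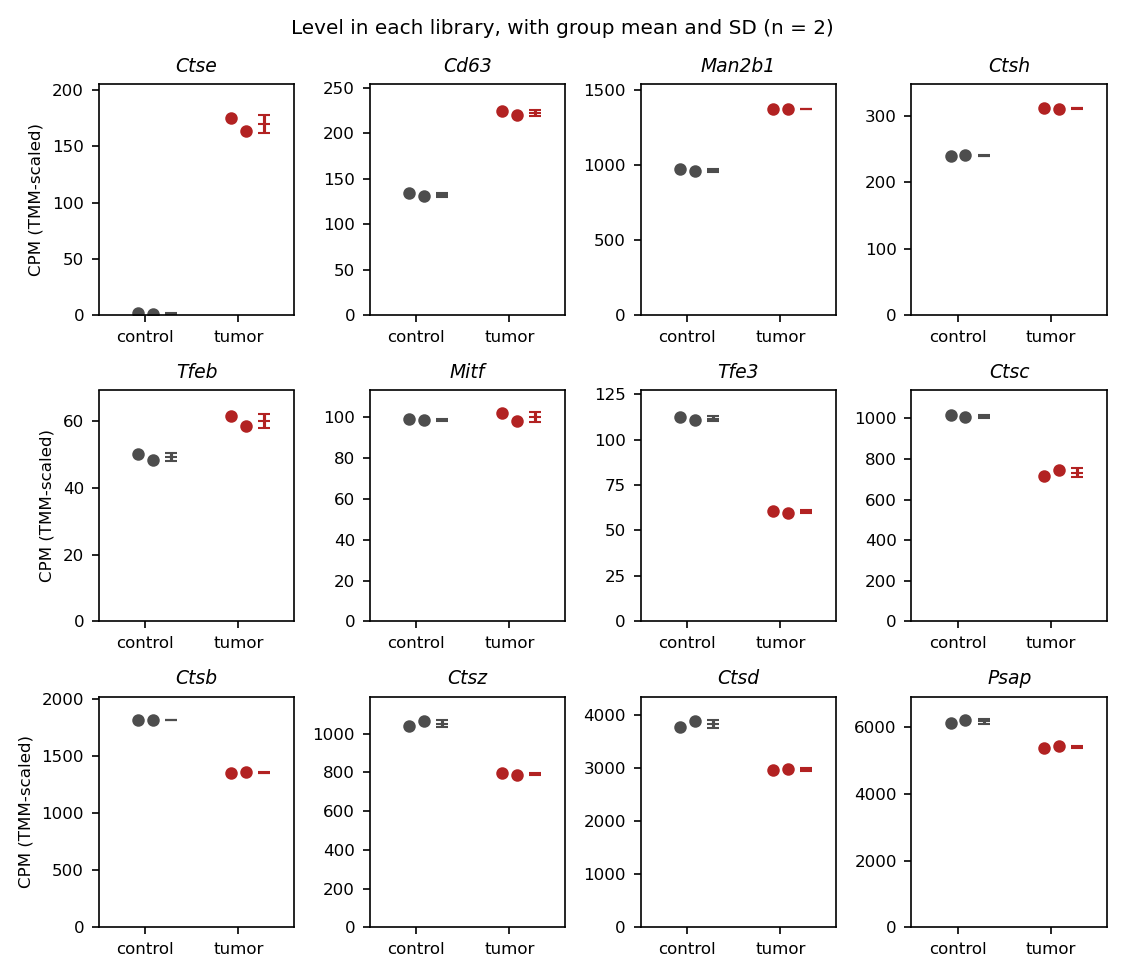
Level in each library (points, CPM from TMM-scaled library sizes, y axes from 0) of 12 lysosomal genes in the control and tumor groups (x axis), with the group mean and SD (n = 2) beside the points. In Ctse, Cd63, Man2b1, Ctsh and Tfeb the tumor libraries lie above the controls, in Tfe3, Ctsc, Ctsb, Ctsz, Ctsd and Psap they lie below, and in Mitf the groups overlap. Under AM identity scaling the fall of Ctsc, Ctsb, Ctsz, Ctsd and Psap turns into a rise.

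Among the glycosidases and acid ceramidase, 5 of 8 were lower (62.5%, against 24.8% of all genes tested). Man2b1 was higher (12.5%, against 29.0%), and Gaa and Gla were not called. All 8 were higher under AM identity scaling, against 71.1% of all genes tested. Lysosomal alpha-mannosidase (Man2b1; ENSMUSG00000005142, chr8:85083270-85098282), which trims mannose from glycoproteins, stood at 969.8 and 957 CPM in the control and 1370.3 and 1373 CPM in the tumor libraries. Its log2 fold change was 0.51 ± 0.019 (adjusted p = 9.63e-19), a 1.42-fold rise and the largest in the class. Beta-galactosidase (Glb1) gave 68.6 and 74.2 CPM in the control and 63.2 and 54.5 CPM in the tumor libraries and fell by 0.28 ± 0.065 (adjusted p = 0.000618), with the largest SE of the class. Without tumor replicate 2 its fall was 0.18 (adjusted p = 0.0151). Beta-glucuronidase (Gusb) gave 393 and 388 CPM in the control and 329 and 337 CPM in the tumor libraries and fell by 0.23 ± 0.028 (adjusted p = 5.15e-08). The alpha subunit of beta-hexosaminidase (Hexa), which degrades gangliosides, had 665 and 675 CPM in the control and 573 and 572 CPM in the tumor libraries, and its fall was 0.23 ± 0.023 (adjusted p = 2.43e-09). These 3 falls were close to one another in size.

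Acid ceramidase (Asah1), which splits ceramide, and the sialidase Neu1 changed by less. Asah1 stood at 367 and 367 CPM in the control and 337 and 344 CPM in the tumor libraries, with a log2 fold change of -0.11 ± 0.028 (adjusted p = 0.00159). Neu1 stood at 237 and 242 CPM in the control and 220.2 and 225 CPM in the tumor libraries, with a log2 fold change of -0.11 ± 0.032 (adjusted p = 0.00621). With total counts as library sizes neither was called. Acid alpha-glucosidase (Gaa), which degrades glycogen, had 173 and 175 CPM in the control and 163 and 168 CPM in the tumor libraries, and its log2 fold change of -0.07 ± 0.036 was not called (adjusted p = 0.0940). Alpha-galactosidase A (Gla), which acts on globosides, had 79.1 and 73.8 against 83.2 and 80.2 CPM, a value of 0.09 ± 0.052 that was not called (adjusted p = 0.139). Over the 12 alternative fits other than AM identity scaling, the log2 fold change of Gla ran from 0.03 to 0.16. Of these fits, only that with total counts as library sizes called it (0.16, adjusted p = 0.0114).

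Prosaposin (Psap; ENSMUSG00000004207, chr10:60277627-60302597), the precursor of the saposins that present lipids to lysosomal hydrolases, had the highest CPM of the 40 genes. It stood at 6111 and 6212 CPM in the control and 5376 and 5413 CPM in the tumor libraries, and fell by 0.19 ± 0.014 on the log2 scale (adjusted p = 1.75e-12). Progranulin (Grn), a secreted and lysosomal glycoprotein that travels with prosaposin, stood at 745 and 733 CPM in the control and 725 and 718 CPM in the tumor libraries. Its log2 fold change of -0.03 ± 0.022 was not called (adjusted p = 0.207), although without control replicate 2 it was -0.07 with an adjusted p of 0.0398. Both genes were higher under AM identity scaling, at 0.32 and 0.48.

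The membrane proteins held 1 higher gene (14.3%, against 29.0% of all genes tested), 5 lower (71.4%, against 24.8%) and 1 not called. All 7 were higher under AM identity scaling, against 71.1% of all genes tested. Cd63 (ENSMUSG00000025351, chr10:128900989-128912822), a tetraspanin of late endosomes that is also found on secretory granules, stood at 134 and 131 CPM in the control and 225 and 220.1 CPM in the tumor libraries. Its log2 fold change was 0.75 ± 0.036 (adjusted p = 1.78e-16), and the tumor libraries lay far above the controls. The summed levels of the same marker lists of other cells rose along with Cd63 too. The glycoproteins that coat the inside of the membrane barely moved. Lamp1 had 1211 and 1219.7 CPM in the control and 1185 and 1196 CPM in the tumor libraries, a log2 fold change of -0.03 ± 0.019 that was not called (adjusted p = 0.199). Lamp2, its paralog with a role in chaperone-mediated autophagy, had 597 and 586 against 570.2 and 564 CPM and a called fall of 0.06 ± 0.024 (adjusted p = 0.0291). The Lamp2 call was lost without control replicate 1 (adjusted p = 0.105) and without tumor replicate 2 (adjusted p = 0.102), at -0.06 in both, and the fall was 0.096 without control replicate 2. With total counts as library sizes its sign turned (0.0046, adjusted p = 0.888), and neither DESeq2's Wald test (adjusted p = 0.0691) nor the fit on genes with at least 10 counts in every library (adjusted p = 0.219) called it.

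The other membrane proteins fell together, by between 0.19 and 0.27 on the log2 scale, and rose under AM identity scaling. Scarb2, the receptor that carries glucocerebrosidase to lysosomes, stood at 662 and 638 CPM in the control and 540.1 and 539 CPM in the tumor libraries, a log2 fold change of -0.27 ± 0.024 (adjusted p = 2.13e-10). Cd68, the mucin-like macrophage marker, stood at 690.2 and 717 CPM in the control and 583 and 593 CPM in the tumor libraries and fell by 0.26 ± 0.024 (adjusted p = 4.16e-10). Laptm5, a lysosomal protein of blood cells, gave 2847 and 2858 CPM in the control and 2479 and 2481 CPM in the tumor libraries, a log2 fold change of -0.20 ± 0.016 (adjusted p = 1.05e-11). Mcoln1, the calcium-releasing channel upstream of TFEB activation, was scarcer at 106 and 106 CPM in the control and 91.7 and 93.4 CPM in the tumor libraries, and its change was -0.19 ± 0.045 (adjusted p = 0.000563).

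The V-ATPase is made of a cytosolic V1 sector that burns ATP and a membrane V0 sector that passes protons. All 3 members from V1 were lower, and the V0 members split, with 2 higher and 1 lower under TMM scaling. Of the 7 V-ATPase members, 71.4% were lower and 28.6% higher, against 24.8% and 29.0% of all genes tested. Under AM identity scaling all 7 were higher, against 71.1% of all genes tested. The V1 subunit Atp6v1c1, which links the sectors, stood at 189.9 and 183 CPM in the control and 153 and 150.4 CPM in the tumor libraries and fell by 0.30 ± 0.036 (adjusted p = 5.65e-08). The catalytic subunit Atp6v1a stood at 357 and 357 CPM in the control and 297 and 291 CPM in the tumor libraries and fell by 0.28 ± 0.028 (adjusted p = 1.72e-09). The regulatory subunit Atp6v1h had 94.3 and 94.6 CPM against 84.8 and 81.5 CPM, a log2 fold change of -0.18 ± 0.048 (adjusted p = 0.00183). The accessory protein Atp6ap1, needed for assembly of the pump, stood at 403 and 418 CPM in the control and 389 and 382 CPM in the tumor libraries and fell by 0.09 ± 0.028 (adjusted p = 0.00616), a call that was lost with total counts as library sizes (-0.025, adjusted p = 0.474).

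In V0, the a1 and d1 subunits are found in most cells, and d2 is the form of osteoclasts and macrophages. Atp6v0a1 stood at 216 and 219 CPM in the control and 249.5 and 247 CPM in the tumor libraries, a log2 fold change of 0.19 ± 0.032 (adjusted p = 1.04e-05). Atp6v0d1 stood at 224 and 243 CPM in the control and 254 and 248 CPM in the tumor libraries, a log2 fold change of 0.11 ± 0.035 (adjusted p = 0.0122), with the lower control library apart from the rest. Atp6v0d2, the more abundant of the d forms per length at 401 ± 1.23 against 130.2 ± 7.29 CPM per kilobase in the controls, stood at 1091 and 1086 CPM in the control and 956 and 971 CPM in the tumor libraries and fell by 0.18 ± 0.020 (adjusted p = 2.15e-08). The difference between the d forms in their change was not tested. The rise of Atp6v0d1 was not called without control replicate 1 (0.038, adjusted p = 0.485) or without tumor replicate 1 (0.08, adjusted p = 0.0776).

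Of the 3 MiT/TFE factors, Tfeb was higher, Tfe3 lower and Mitf not called, against 29.0% higher and 24.8% lower of all genes tested. Under AM identity scaling 2 were higher and 1 lower, against 71.1% and 4.71% of all genes tested. Tfe3 (ENSMUSG00000000134, chrX:7762560-7775202) stood at 112 and 111 CPM in the control and 60.9 and 59.8 CPM in the tumor libraries, a log2 fold change of -0.89 ± 0.049 (adjusted p = 4.46e-15). It was the one member called lower under AM identity scaling as well, at -0.37. Tfeb (ENSMUSG00000023990, chr17:47737030-47792419) stood at 50.1 and 48.2 CPM in the control and 61.4 and 58.5 CPM in the tumor libraries, a log2 fold change of 0.28 ± 0.063 (adjusted p = 0.000351), and it kept this direction and call under all 13 alternative fits. Mitf (ENSMUSG00000035158, chr6:97807052-98021349), the melanocyte and osteoclast factor of the family, had 99.1 and 98.5 CPM in the control and 102 and 98.4 CPM in the tumor libraries. Its groups overlapped, its log2 fold change was 0.02 ± 0.045 (adjusted p = 0.764), and its sign turned when control replicate 2 (-0.0063) or tumor replicate 1 (-0.01) was left out. Under AM identity scaling Mitf was called higher, at 0.53. Per kilobase of gene length, the order of the factors in the controls was Mitf (15.9 ± 0.0679), Tfe3 and Tfeb, and in the tumor libraries it was Mitf (16.2 ± 0.394), Tfeb (10.6 ± 0.373) and Tfe3. The order in the controls depended on the length used, since per kilobase of the longest annotated transcript it was Tfeb (20.99), Mitf (20.2) and Tfe3 (17.6).

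Lower genes were the majority both with and without the promoter element shown above. Of the 10 genes with TCACGTG, 6 were lower, Atp6v0d1 was higher and Gaa, Gla and Lamp1 were not called, with a median log2 fold change of -0.14. Of the 23 genes with a promoter entry and no such match, 15 were lower and 5 higher, with a median of -0.18. For CACGTG the order of the medians was the reverse. The 12 genes with it had a median of -0.19 (8 lower, 1 higher), and the 21 without it had -0.12 (13 lower, 5 higher). Of all genes tested, 24.8% were lower and 29.0% higher. Under AM identity scaling all 10 genes with TCACGTG were higher, as were 21 of the 23 without it, of which 1 was lower. Of all genes tested, 71.1% were higher and 4.71% lower under that scaling. These TMM medians all lay below that of all genes tested (0.02), and no test was made of the differences.

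Further lysosomal genes were read from lists of 112 genes by role, of which 105 were tested. Of these, 44 were lower (41.9%, against 24.8% of all genes tested), 24 higher (22.9%, against 29.0%) and 37 not called, with a median log2 fold change of -0.09, while 95 were higher and 3 lower under AM identity scaling, against 71.1% and 4.71% of all genes tested. At 1.5-fold or more, 8 were higher and 3 lower, against 17.4% and 7.92% of all genes tested. Most changes were small, and a few genes rose from low control levels by far more.

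**Figure D4:**
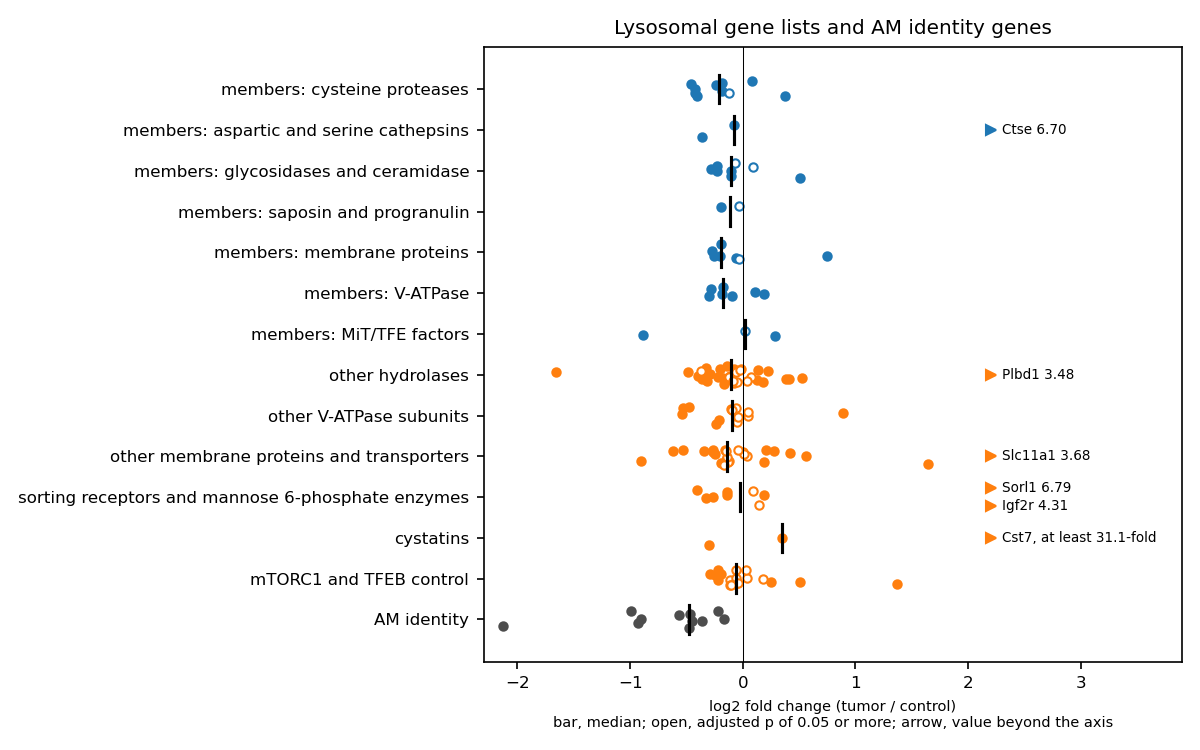
Log2 fold change (x axis, tumor over control, TMM scaling) of each tested gene by list (y axis), with the 40 lysosomal genes in blue, other lysosomal genes in orange and AM identity genes in grey. Bars are medians, open circles have an adjusted p of 0.05 or more, and arrows mark genes beyond the axis, among them Ctse at 6.70 and Sorl1 at 6.79. The list medians below 0 turn positive under AM identity scaling.

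Of 34 other hydrolases tested, 16 were lower (47.1%, against 24.8%), 8 higher (23.5%, against 29.0%) and 10 not called. Under AM identity scaling 31 were higher and 1 lower, against 71.1% and 4.71% of all genes tested. Acp5, the tartrate-resistant acid phosphatase of osteoclasts and macrophages, stood at 261 and 267 CPM in the control and 84.0 and 83.8 CPM in the tumor libraries, a log2 fold change of -1.65 ± 0.037 (adjusted p = 4.2e-24), and was lower under AM identity scaling also (-1.14). Lipa, the acid lipase for cholesteryl esters, gave 1086 and 1064 CPM in the control and 767 and 770.1 CPM in the tumor libraries and fell by 0.48 ± 0.021 (adjusted p = 1.69e-17), and it was not called under AM identity scaling (0.032, adjusted p = 0.172). Pla2g15, the phospholipase A2 with which AMs degrade surfactant lipid, gave 460.1 and 463 CPM in the control and 361 and 342 CPM in the tumor libraries and fell by 0.39 ± 0.028 (adjusted p = 1.31e-12). On the higher side, Plbd1, a phospholipase B-like protein of granulocytes, had 3.84 and 3.23 against 39.6 and 39.96 CPM (3.48 ± 0.12 on the log2 scale, adjusted p = 1.32e-19). Arsb, a sulfatase, had 29.8 and 32.9 against 46.1 and 44.1 CPM, a rise of 0.53 ± 0.077 (adjusted p = 1.26e-06). Hgsnat, an acetyltransferase of heparan sulfate breakdown, had 41.0 and 45.6 against 59.2 and 55.8 CPM, a rise of 0.41 ± 0.068 (adjusted p = 9.58e-06).

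Of 13 other V-ATPase genes tested (Atp6v0a4, Atp6v1b1, Atp6v1c2, Atp6v1e2 and Atp6v1g3 were too low), 6 were lower (46.2%, against 24.8% of all genes tested), 1 higher (7.69%, against 29.0%) and 6 not called, and 10 were higher and 0 lower under AM identity scaling, against 71.1% and 4.71%. Tcirg1, the a3 subunit of osteoclasts and macrophages, stood at 513 and 511 CPM in the control and 364 and 370.3 CPM in the tumor libraries, a log2 fold change of -0.48 ± 0.026 (adjusted p = 2.24e-15), and was not called under AM identity scaling (0.035, adjusted p = 0.215). The V1 stalk subunit Atp6v1e1 had 190.5 and 184 against 136 and 123 CPM and fell by 0.53 ± 0.042 (adjusted p = 9.52e-12). The higher gene was Atp6v1g2, named after its values were seen, at 36 and 18 against 47 and 60 counts (0.89 ± 0.30, adjusted p = 0.0128), and it was not called without control replicate 2 (0.57, adjusted p = 0.216) or tumor replicate 2 (0.80, adjusted p = 0.0515). Atp6v0e2 fell from 14.1 and 15.1 to 9.93 and 10.1 CPM, by 0.54 ± 0.13 (adjusted p = 0.000626). Neither fall was called under AM identity scaling (-0.018, adjusted p = 0.706 for Atp6v1e1, and -0.026, adjusted p = 0.859 for Atp6v0e2). Over members and others together, 11 of 20 tested V-ATPase genes were lower and 3 higher, against 24.8% and 29.0% of all genes tested. Under AM identity scaling 17 were higher and 0 lower, against 71.1% and 4.71%.

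Of 26 other membrane proteins and transporters, 11 were lower (42.3%, against 24.8% of all genes tested), 7 higher (26.9%, against 29.0%) and 8 not called. Under AM identity scaling 23 were higher and 2 lower, against 71.1% and 4.71% of all genes tested. Slc15a3, a peptide and histidine transporter, stood at 821 and 812 CPM in the control and 436 and 437 CPM in the tumor libraries, a log2 fold change of -0.90 ± 0.023 (adjusted p = 8.82e-23), and remained lower under AM identity scaling (-0.39). Clcn7, the chloride and proton exchanger, had 156 and 160.3 against 101 and 105 CPM and fell by 0.62 ± 0.041 (adjusted p = 2.65e-13), or by 0.10 under AM identity scaling (adjusted p = 0.0284). Of the calcium channels, Tpcn2 had 72.6 and 73.1 against 52.4 and 48.5 CPM (-0.53 ± 0.059, adjusted p = 1.39e-08), and Tpcn1 had 5.23 and 5.32 against 15.4 and 17.5 CPM (1.64 ± 0.14, adjusted p = 1.03e-10). Under AM identity scaling the fall of Tpcn2 was no longer called (-0.014, adjusted p = 0.833). Slc11a1, the metal transporter of phagosomes known as NRAMP1, rose from 6.78 and 5.70 to 76.6 and 84.6 CPM, by 3.68 ± 0.096 on the log2 scale (adjusted p = 1.11e-22). Cln3, a membrane protein lost in Batten disease, rose from 105 and 106 to 151 and 159.5 CPM, by 0.56 ± 0.041 (adjusted p = 3.17e-12).

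Sorting receptors and the enzymes of the mannose 6-phosphate tag, which route hydrolases to lysosomes, held 5 lower, 3 higher and 2 uncalled genes of 10, all 10 being higher under AM identity scaling. Sorl1, a sorting receptor, rose from 3.52 and 2.91 to 366 and 355 CPM (6.79 ± 0.066 on the log2 scale, adjusted p = 8.59e-33), a change of the same order as that of Ctse. Igf2r, the cation-independent mannose 6-phosphate receptor, rose from 0.694 and 0.824 to 16.1 and 14.1 CPM (4.31 ± 0.22, adjusted p = 6.64e-16). The lower genes included a subunit of the phosphotransferase that attaches the tag, Gnptab, and the enzyme that uncovers it, Nagpa, while Gnptg, another phosphotransferase subunit, was not called (0.15 ± 0.082, adjusted p = 0.132). Gnptab had 199 and 194 against 149 and 147 CPM (-0.41 ± 0.036, adjusted p = 9.82e-11), and Nagpa had 103 and 107 against 83.3 and 91.5 CPM (-0.27 ± 0.050, adjusted p = 4.95e-05). Sortilin (Sort1), the most abundant of them in CPM, stood at 2055 and 2037 CPM in the control and 1636 and 1637 CPM in the tumor libraries and fell by 0.32 ± 0.017 (adjusted p = 2.51e-15). The adaptor Gga3 had 38.8 and 43.7 against 48.9 and 44.8 CPM, and its rise of 0.18 ± 0.074 (adjusted p = 0.0380) was not called without control replicate 1 (0.09, adjusted p = 0.491), without tumor replicate 1 (0.12, adjusted p = 0.224) or with the replicate number as a block (adjusted p = 0.0530).

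Cystatins are inhibitors of the cysteine cathepsins, and 3 of the 4 listed were tested. Of these, 2 were higher and 1 lower, against 29.0% and 24.8% of all genes tested. All 3 were higher under AM identity scaling, against 71.1% of all genes tested. Cystatin C (Cst3), the secreted form, stood at 428 and 431 CPM in the control and 537 and 557 CPM in the tumor libraries and rose by 0.35 ± 0.026 (adjusted p = 3.03e-12). Cystatin B (Cstb), the cytosolic form, had 117 and 119 against 98.6 and 93.4 CPM and fell by 0.30 ± 0.045 (adjusted p = 2.05e-06), which turned into a rise under AM identity scaling (0.22). Cystatin F (Cst7), which acts inside lysosomes of immune cells, had 0 and 1 counts in the control and 107 and 116 counts in the tumor libraries. Against a floor of 3 counts per control library it was at least 31.1-fold higher, a bound that covers counting error only.

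The mTORC1 and TFEB control list holds subunits, activators and inhibitors of the nutrient-sensing kinase complex that retains TFEB in the cytosol, together with Tfec and Zkscan3. Of its 19 genes, 5 were lower (26.3%, against 24.8% of all genes tested), 3 higher (15.8%, against 29.0%) and 11 not called, and 18 were higher and 0 lower under AM identity scaling, against 71.1% and 4.71% of all genes tested. Folliculin (Flcn), which acts on the Rag GTPases at the lysosome, rose from 46.5 and 45.2 to 65.1 and 65.8 CPM (0.51 ± 0.061, adjusted p = 4.33e-08). Its partners split, with Fnip2 at 98.3 and 96.1 against 115 and 116 CPM (0.25 ± 0.044, adjusted p = 2.35e-05) and Fnip1 at 176 and 177 against 149.9 and 139.9 CPM (-0.29 ± 0.039, adjusted p = 3.72e-07). The mTORC1 subunit Rptor had 49.3 and 54.6 against 45.0 and 42.7 CPM (-0.24 ± 0.069, adjusted p = 0.00431), and was not called without control replicate 2 (-0.19, adjusted p = 0.0806). The GTPase Rragc had 192 and 187 against 159 and 167 CPM (-0.22 ± 0.037, adjusted p = 9.97e-06). Rragd, named here after its values were seen, was the one gene of the list that changed by 1.5-fold or more, from 6 and 5 counts in the control to 12 and 19 counts in the tumor libraries (1.37 ± 0.57, adjusted p = 0.0427). Its call was lost without any 1 of the libraries, control replicate 1 or 2 (adjusted p = 0.278 and 0.249) or tumor replicate 1 or 2 (adjusted p = 0.0676 and 0.293), and with the replicate block (0.0710).

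For 10 of the 40 genes, annotated exons overlap those of another gene, and whether reads were counted by strand is not given in the sources used here. Reads of both partners then cannot be told apart in the overlap. The pairs are Ctsb with Fdft1, Ctsl with Gm47123 and Gm49230, Ctsz with Nelfcd, Ctsd with Gm49369, Ctsa with Neurl2 and Pltp, Hexa with Tmem202, Glb1 with Tmppe, Grn with Fam171a2, Lamp1 with Grtp1 and Atp6v1h with Rgs20. Gene positions are on GRCm38, as 39 of the 40 genes have coordinates identical to those of GENCODE release M21.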

How the data were processed

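Total RNA of purified AMs was extracted with TRIzol, libraries were made with a NEBNext Ultra kit, and paired-end HiSeq reads were aligned with HISAT2 2.0.5 and counted per gene with featureCounts. The values the authors deposited are whole-number counts per gene, without normalization, in 1 column per library. The submitters' notes also name DESeq2, with no role. The genome build, annotation, strand setting and handling of reads with several matches are not given in the sources used here. The authors' FPKM values were not used.

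Libraries were grouped by their titles. The counts were fitted with edgeR 4.0.16 under R 4.3.3. The filter was filterByExpr with a minimum of 10 counts (14256 genes kept, 40276 untested), library sizes were scaled by TMM, and the quasi-likelihood test with group as its single term (2 residual degrees of freedom) was adjusted by Benjamini-Hochberg over all genes tested, at a threshold of 0.05. An SE is the absolute log2 fold change over the root of the F statistic. CPM is the count divided by the scaled library size. A count of 3 or fewer was taken as the floor, which covers counting error only. On simulated counts for this comparison, tested on 14105 genes, 86.5% of 193 changed genes were recovered and 3.47% of calls were false. In the data themselves 7671 of 14256 genes were called, far more than were simulated as changed. The rates were not split by size of change, and most called lysosomal genes changed by less than 1.5-fold. These rates therefore do not measure recovery or error among the calls reported here.

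The 40 genes, the other lists and the alternatives were chosen with earlier results of these data known. All 40 genes were named, and of each further list up to 3 called rises and 3 called falls whose mean in the higher group reached 100 counts. Alternatives were DESeq2 size factors, total counts and the 11 AM identity genes as scaling, no filter, at least 10 counts in every library, the DESeq2 1.42.0 Wald test, limma-voom (limma 3.58.1), protein-coding genes alone, a block for the replicate number, an adjusted p under 0.01, the longest transcript as gene length, and leaving out each library, after which the lone library of a group is assumed to vary like the other pair. Of the table's identifiers, 54495 were found in GENCODE release M21, 98.3% of these with identical coordinates. With 2 libraries per group no permutation of groups can reach the threshold.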

Additional observations from a re-analysis of the deposited data

How the results depend on the processing

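Apart from scaling on the AM identity genes, 28 of the 40 genes kept their direction and call under all 12 other fits, and 12 did not under at least 1. Scaling on the AM identity genes called 38 of the 40 higher and 1 lower, with 9 higher and 0 lower at 1.5-fold or more, and 95 of the other lysosomal genes higher and 3 lower, while of all genes tested it called 71.1% higher and 4.71% lower, and 42.3% and 1.88% at 1.5-fold or more. It turned the direction of these genes, with log2 fold changes of Ctsb 0.10, Ctsc 0.053, Ctsf 0.089, Ctsl 0.33, Ctso 0.39, Ctss 0.33, Ctsz 0.11, Lgmn 0.28, Ctsd 0.15, Ctsa 0.43, Hexa 0.29, Glb1 0.24, Gaa 0.44, Gusb 0.29, Neu1 0.41, Asah1 0.41, Psap 0.32, Grn 0.48, Lamp1 0.49, Lamp2 0.45, Cd68 0.26, Laptm5 0.31, Scarb2 0.25, Mcoln1 0.32, Atp6v0d2 0.34, Atp6v1a 0.23, Atp6v1c1 0.22, Atp6v1h 0.33 and Atp6ap1 0.42, and among the other lysosomal genes of Lipa 0.032, Pla2g15 0.12, Tcirg1 0.035, Gnptab 0.11, Sort1 0.19, Nagpa 0.25, Cstb 0.22, Fnip1 0.23, Rptor 0.27 and Rragc 0.30. Of these, Ctsf, Lipa and Tcirg1 were not called after the turn. Atp6v1e1 (-0.018), Atp6v0e2 (-0.026) and Tpcn2 (-0.014) kept their sign and lost their call, and Gla and Mitf were called higher. The cause was not tested. With total counts as library sizes, Grn (0.033), Lamp1 (0.037) and Lamp2 (0.0046) changed sign, none of them called, and Ctsa, Neu1, Asah1 and Atp6ap1 lost their call. DESeq2's Wald test did not call Ctsk (adjusted p = 0.0584), Lamp2 (0.0691) or Atp6v0d1 (0.0803), and without the low count filter Ctsk was not called (0.0854). Of the further lysosomal genes named, the Wald test did not call Gga3 (0.173), Rragd (0.223) or Atp6v1g2 (0.109). Without the filter Gga3 (0.0728) and Rragd (0.0743) were not called. With at least 10 counts in every library Lamp2 was not called (0.219). Mitf changed sign without control replicate 2 (-0.0063) and without tumor replicate 1 (-0.013), and was 0.040 without tumor replicate 2.

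Leaving out 1 library at a time gave 7 to 7 higher and 25 to 27 lower genes of the 40, 2 to 2 and 1 to 1 at 1.5-fold or more, 18 to 22 higher and 41 to 42 lower other lysosomal genes, and 6515 to 7470 called genes in all, fewer than with 4 libraries. An adjusted p under 0.01 left 7 higher and 25 lower. Per kilobase of the longest annotated transcript, control levels were 2319 for Psap, 1803 for Ctsd, 0.759 for Ctse, 20.99 for Tfeb and 19.6 for Atp6v1h. Without Psap, Ctsd and Laptm5 the share of counts was 1.84% in the control and 1.78% in the tumor libraries.

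Replicate numbers are shared by the groups in the labels, and deviations of the replicate 1 libraries from their group means correlated at -0.00278 across genes. This value cannot tell whether libraries of the same number share a batch or pairing, since counting noise could hide an effect on some genes. With the replicate number as a block, 8 of the 40 genes were higher and 26 lower, 2 and 1 at 1.5-fold or more, 22 of the other lysosomal genes were higher and 44 lower, and 7446 genes were called in all. Among the genes named, the calls of Gga3, Rragd and Sftpb were lost, and no other call changed among the 40 genes, the pathway genes named and the alveolar type 2 genes.

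The biological coefficient of variation was 0.0303 with 2 libraries per group, and the test calls changes as small as that of Lamp2, so a call does not speak for a large change. Small falls rest on the choice of scaling, which moved the median of all genes by 0.52, and these include falls of slightly more than that, as of Atp6v1e1, Atp6v0e2 and Tpcn2.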

Other observations

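Napsa, an aspartic protease of type 2 cells that was in no lysosomal list above, was higher in the tumor libraries, at 28.7 and 31.7 CPM in the control and 81.4 and 78.5 CPM in the tumor libraries. Its log2 fold change was 1.41 ± 0.067 (adjusted p = 1.31e-16, edgeR), and it was named after its values were seen. Of the other alveolar type 2 genes, Sftpc had 2.72 and 2.09 CPM in the control and 2.77 and 3.87 CPM in the tumor libraries and was not called (adjusted p = 0.138), nor was Slc34a2, at 0.320 and 0.570 against 0.751 and 1.22 CPM (adjusted p = 0.0607). With 1 library left out, the log2 fold change of Sftpc ran from 0.19 to 0.67 and that of Slc34a2 from 0.77 to 1.59, and both were called without tumor replicate 1 (adjusted p = 0.0353 and 0.0459). Slc34a2 was also called with total counts as library sizes (adjusted p = 0.0477) and among protein-coding genes alone (adjusted p = 0.0461). Sftpb had 1.76 and 2.53 against 1.56 and 0.764 CPM, a fall of 0.89 ± 0.37 (adjusted p = 0.0433), and Sftpa1 fell by 0.99 ± 0.41 (adjusted p = 0.0428). Both falls rest on few counts. Sftpb was not called without control replicate 2 (-0.63, adjusted p = 0.340), without tumor replicate 2 (-0.45, adjusted p = 0.343) or with the replicate number as a block (adjusted p = 0.0647), and fell by 1.47 without tumor replicate 1. Sftpa1 was not called without control replicate 1 (-1.10, adjusted p = 0.119), control replicate 2 (-0.91, adjusted p = 0.201) or tumor replicate 1 (-0.55, adjusted p = 0.297), and fell by 1.71 without tumor replicate 2. DESeq2's Wald test called neither (adjusted p = 0.194 and 0.187), nor did the fit with total counts as library sizes (adjusted p = 0.0619 and 0.0593). Under AM identity scaling neither fall was called (adjusted p = 0.355 for Sftpb and 0.293 for Sftpa1), while Sftpc and Slc34a2 were called higher (adjusted p = 0.00129 and 0.00481).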
